A study of Brassica napus with 23 samples.

Results

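Control shoots and control roots of Brassica napus (oilseed rape), harvested 7 d after a mock treatment, were compared across all annotated genes in 6 of the series' 23 RNA-seq libraries, 3 per tissue. The rule took the libraries by their tissue, treatment and harvest labels and used no measured value. The labels name no cultivar. Plants grew for 14 d, and 7 d after planting the controls received LB broth, while the treated plants of the series received 15 mL of a culture of the bacterium Pseudomonas chlororaphis PA23. The labels do not say how many plants went into a library or whether replicates were separate plants, so the spread behind each p-value is that between libraries and may be technical. In bulk tissue fewer cells of a type and less RNA per cell cannot be told apart.

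Shoots and roots share a genome but differ in task. Leaves carry out photosynthesis, for which the nucleus makes very large amounts of a small set of chloroplast proteins. Roots take up water and minerals, and their cell files (epidermis with root hairs, endodermis, vascular tissue, cap) each use their own transporters and wall enzymes. Brassica napus arose from a cross of Brassica rapa, which gave the A subgenome, and Brassica oleracea, which gave the C subgenome, so that many genes exist as a near-identical A and C pair.

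The deposited counts cover 101040 gene IDs. Of these, 3347 (3.31%) matched a symbol in RefSeq's table of the Da-Ae assembly, and 2 carried a gene name, so shoot and root marker genes could not be looked up by name. Genes are given by ID with the coordinates of the deposited table, for which the sources used here name no build. Whether tissue labels agreed between libraries was checked with lists from other libraries instead. Those lists were drawn by the same labels, so a swap of all labels would not show. In the PA23-treated libraries of both harvests, 824 genes were found only in shoot and 1832 only in root by the limits given further on. The 824 genes made up 1.29%, 1.82% and 1.83% of counts in the 3 control shoots, against 0.00265% to 0.00289% in the 3 control roots. The 1832 genes made up 0.00253% to 0.00301% in the control shoots, against 4.07%, 4.46% and 4.86% in the control roots. No library held more than a trace of the other tissue's genes.

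Depth was uneven. Shoot replicates 1, 2 and 3 held 44.9, 1.7 and 60.7 M counts (M, mega), and root replicates 1, 2 and 3 held 82.7, 45.8 and 0.622 M. A pair of libraries, one per tissue, therefore carries little information on low genes. Low counts were mostly even: of counts from 1 to 10, 20.9% to 30% were odd in shoots and 19.3% to 30.8% in roots. Counting each mate of a pair would leave such a pattern, but whether it did so here was not tested. The chi-square between 2 libraries grows with their depth, so pairs that include the shallow library of their tissue were compared with each other. Per degree of freedom, shoot replicate 2 gave 2.45 with replicate 3 over 23382 genes and 20.1 with replicate 1 over 25880 genes, and root replicate 3 gave 3.81 and 3.73 with replicates 1 and 2.

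Tissue divided the genes about evenly between called and not called in the fit of all 23 libraries, while a fit of the 6 compared libraries alone called 24669 of 57549. Of 68002 genes tested, 36722 (54%) differed between shoot and root at an adjusted p under 0.05 (edgeR quasi-likelihood test on all 23 libraries, Benjamini-Hochberg adjustment), with 16254 (23.9%) higher in shoot and 20468 (30.1%) higher in root. Levels are counts per mega counts after TMM scaling (CPM), which sets the typical gene as equal between libraries. Most called differences were large. Of the genes higher in shoot, 14204 differed by 2-fold or more, 7139 by 8-fold or more and 4080 by 32-fold or more. Of those higher in root, 18139, 10389 and 6946 did. Differences past 32-fold thus made up 25.1% of the calls towards shoot and 33.9% of those towards root. Conversely, 31244 of the tested genes (45.9%) had a fitted difference of less than 2-fold. The 6 libraries did not overlap between tissues for 12811 of the genes called higher in shoot and 12756 of those called higher in root, while 43.2% of all tested genes showed no overlap.

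The balance of directions depends on what is held equal. With TMM the median log2 difference over all tested genes was -0.09 and 44.3% of calls were higher in shoot. Scaled by total counts alone the median was -0.66, and 11640 of 41545 calls (28%) were higher in shoot and 29905 higher in root. The excess of root calls is thus stated relative to a typical gene, and is larger relative to total counts. Without shoot replicate 1, shoot calls numbered 16327 and root calls 16158, a share of 50.3% towards shoot, so the excess of root calls rests on that library. Of the 6 libraries, only root replicate 2 had another code in its description, taken here as the sequencing run. Without it 32024 genes were called, 14140 higher in shoot and 17884 higher in root, in a fit whose other groups still held both codes. With shoot replicates 2 and 3 counted as a single library there were 36497 calls, 16500 higher in shoot and 19997 higher in root.

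**Figure D1:**
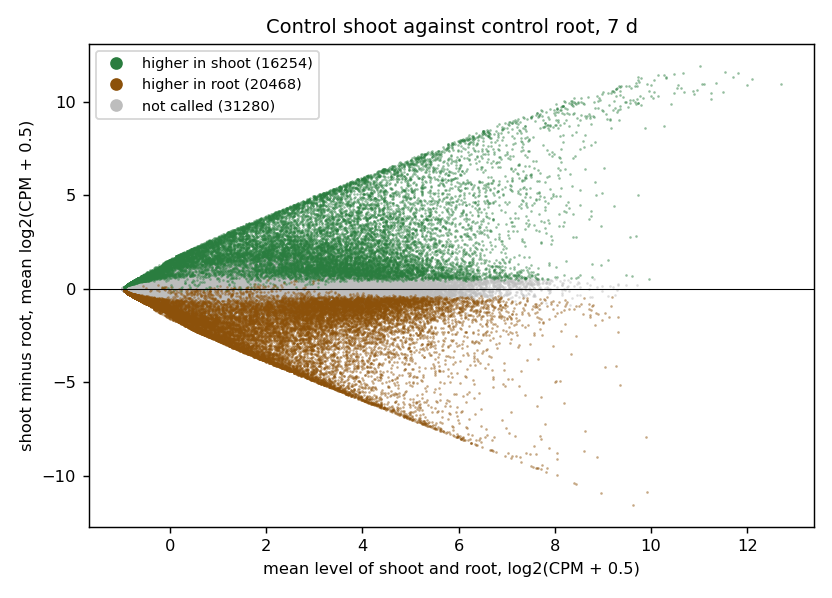
Each point is a tested gene, with the mean of its shoot and root level on the x axis (log2 of CPM plus 0.5) and the shoot minus root difference of mean log2(CPM + 0.5) on the y axis, colored by the edgeR call. The points furthest to the right lie above the line at 0, on the shoot side, where a gene's own shoot level sets its place on both axes.

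Calls were also counted by level. Genes were sorted by the mean of their shoot and root levels, which holds both tissues compared, so the classes of high level fill with genes that are high in the tissue with the more abundant genes, and the shares are a description only. Below 1 CPM, 16.7% of 17458 genes were called higher in shoot and 35.1% higher in root. Between 10 and 100 CPM, the shares were 31.1% and 26.7% of 19181 genes. Between 100 and 1000 CPM they were 50% and 20.2% of 1334 genes. Over all tested genes the shares were 23.9% and 30.1%. The 35 genes with a mean above 1000 CPM entered that class through their shoot level. Levels are not corrected for gene length. Of the 12670 genes spanning under 1 kb (median level 0.964 CPM), 21.9% were higher in shoot and 35.7% in root, against 25.6% and 23.7% of the 7943 genes spanning 4 kb or more (median level 9.49 CPM).

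The 2 genes with the largest log2 fold change towards shoot, among called genes with at least 1 on the mean log2 CPM scale and no overlap, had no counts in root. BnaA04g04350D (chromosome A04, 3211999 to 3214328, minus strand) lay at 131, 326 and 334 CPM in shoots and had 0 counts in all 3 roots. Against the 3 counts that a zero over the root group allows, that is at least 12100-fold higher in shoot (edgeR adjusted p = 3.03e-08). Where both mates were counted, a zero allows more than 3 counts, and this and all later bounds of the kind are too high. BnaA01g27400D (A01, 19152116 to 19157980, plus strand) lay at 151, 289 and 309 CPM in shoots with 0 counts in roots, at least 11900-fold higher in shoot (edgeR adjusted p = 0.000525). In both genes shoot replicate 1 had the lowest of the shoot levels.

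The 2 genes with the largest change towards root had no counts in shoot. BnaA03g30810D (A03, 14919821 to 14922958, plus strand) had 0 counts in shoots and 1010, 897 and 1100 CPM in roots, at least 28100-fold higher in root (edgeR adjusted p = 9.25e-10). BnaC07g20220D (C07, 26918624 to 26920233, minus strand) had 0 counts in shoots and 644, 740 and 709 CPM in roots, at least 19700-fold higher in root (edgeR adjusted p = 4.16e-08). The 3 root libraries lay close together for both genes, the shallow replicate 3 included.

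RefSeq gives a name to 2 of the IDs. BnaA02g32290D (A02, 23226390 to 23227513), named KCP1 there, lay at 18.6, 26.1 and 20.4 CPM in shoots, against 16, 15.5 and 14.3 CPM in roots. The libraries did not overlap, but at 0.43 (SE 0.22) the log2 fold change missed the threshold (edgeR adjusted p = 0.0994). It passed without shoot replicate 1 (0.69, edgeR adjusted p = 0.0206), and with total counts its sign turned (-0.17). BnaCnng15100D (an unplaced C sequence, 14048720 to 14051119), named TR1, lay at 5.81, 5.8 and 9.11 CPM in shoots, against 17.1, 20.1 and 13.3 CPM in roots (log2 fold change -1.29, SE 0.28, edgeR adjusted p = 0.000207).

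The shoot put far more of its counts into few genes than the root. The 10 genes with most counts in a library took 4.09%, 6.55% and 6.44% of counts in shoots, against 1.51%, 1.57% and 1.98% in roots. The top 100 took 13.2%, 21.9% and 21.7% in shoots (18.9% ± 5, SD, n = 3), against 7.28%, 7.54% and 8.37% in roots (7.73% ± 0.565, SD, n = 3). The top 1000 took 42.6% ± 6 in shoots and 26.2% ± 1.03 in roots (SD, n = 3 each). At each of these sizes every shoot lay above every root, and the exact permutation test gave p = 0.1 (two-sided), the smallest that 3 against 3 libraries allow. From the other end, 2453, 1354 and 1389 genes held 50% of counts in shoots, against 4147, 4548 and 3938 in roots (exact permutation p = 0.1).

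**Figure D2:**
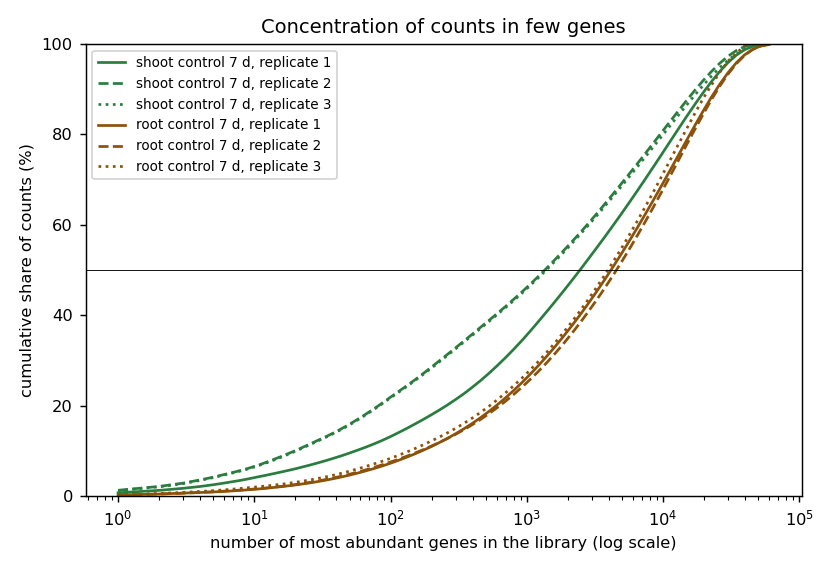
Lines show, for each of the 6 libraries, the cumulative share of counts (y axis, %) held by its most abundant genes in order of rank (x axis, log scale), with a horizontal line at 50%. Over the first 1000 genes the 3 shoot lines run above the 3 root lines, with shoot replicate 1 between the other shoots and the roots, and near the top the line of the shallow root replicate 3 crosses the shoot lines.

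Shoot replicate 1 was the least concentrated shoot library. Of the 100 genes with the highest mean CPM in shoot, 99 were lower in replicate 1 than in both other replicates, with a median ratio of 0.506 to the mean of those. The other groups of the series gave the same order of tissues: the top 100 genes took 13.8% to 17% in PA23-treated shoots at 24 h, 15.6% to 17.3% in control shoots at 24 h and 17.1% to 20.1% in PA23-treated shoots at 7 d, against 6.73% to 8.1% in the 8 root libraries of those conditions. With 13.2%, control shoot replicate 1 at 7 d lay below the lowest shoot library of those groups. The difference between the tissues at 7 d was 11.2 percentage points, and 14.1 without shoot replicate 1.

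The abundant genes of the tissues were almost wholly different ones. A single gene (1) was among the 100 highest by mean CPM in both tissues. All 100 top shoot genes were called higher in shoot, with log2 fold changes from 0.53 to 14.42 and a median of 11.36, and their median rank in root was 45695. Together they held 12.9%, 21.9% and 21.7% of counts in shoots but 0.178% to 0.193% in roots. The 100 top root genes were less exclusive: 3 were called higher in shoot and 75 higher in root, with a median log2 fold change of -1.39 and a median rank in shoot of 641. They held 1.88% to 1.93% of counts in shoots, against 7.22%, 7.5% and 8.27% in roots. These lists were chosen on the libraries compared, so their direction is a description and no support for it.

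The 2 genes with the highest CPM in shoot lie on C04 and A04, chromosomes of common descent in the parent species. BnaC04g30870D (C04, 32746246 to 32747451, minus strand) held the first rank in all 3 shoots, at 8100, 15900 and 16200 CPM, against 1.72, 7.13 and 15.3 CPM in roots. It alone took 0.74%, 1.29% and 1.2% of shoot counts (log2 fold change 11.2, SE 1.45, edgeR adjusted p = 6.01e-06, and 10.49 without root replicate 1). BnaA04g08640D (A04, 7625853 to 7627148, minus strand) lay at 4260, 10500 and 11500 CPM in shoots, against 1.22, 2.91 and 6.13 CPM in roots (log2 fold change 11.89, SE 1.47, edgeR adjusted p = 3.46e-06). Replicate 1 was the lowest shoot library for both, and in roots both were lowest in the deepest library, replicate 1, and highest in the shallowest, replicate 3.

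The 2 genes with the highest CPM in root were lower than those by several fold. BnaA02g21730D (A02, 14122525 to 14126215, plus strand) lay at 0.684, 0 and 1.34 CPM in shoots, against 2040, 2080 and 1680 CPM in roots (log2 fold change -10.96, SE 0.39, edgeR adjusted p = 2.25e-19, and -11.57 without shoot replicate 3). BnaA07g37340D (an unanchored sequence of A07, 1012806 to 1014607, minus strand) lay at 10.9, 10.2 and 3.34 CPM in shoots, against 1890, 1780 and 2030 CPM in roots (log2 fold change -7.96, SE 0.57, edgeR adjusted p = 1.35e-10). These genes held 0.215% to 0.319% of root counts each, and the root libraries differed little.

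At equal depth more genes were detected in root than in shoot on average. The libraries did not overlap under 3 of 4 counting rules, but did under the main one, at least 1 count. After each library was thinned to 621894 counts, the depth of the shallowest, 43690, 40296 and 42632 genes had at least 1 count in shoots, against 48695, 49014 and 41650 in roots. Root replicate 3, which was not thinned, fell among the shoots, and the difference of -4247 genes had an exact permutation p of 0.3 (two-sided); without it the difference was -6648. Where mates are counted as 2, thinning single counts splits pairs in the other 5 libraries but not in root replicate 3. Such splitting can raise the number of genes with at least 1 count in those 5 and lower that with at least 2. Its part in these numbers was not tested. At a minimum of 2 counts the numbers were 35499, 33054 and 33834 in shoots, against 39764, 40286 and 40018 in roots. At a minimum of 10 counts they were 13282, 11272 and 11057 in shoots, against 15642, 16249 and 16258 in roots. With counts halved first, a setting chosen after seeing the data, they were 37564, 35988 and 36078 in shoots, against 42150, 42629 and 41650 in roots. Under these last 3 rules the groups did not overlap, with an exact permutation p of 0.1, the smallest possible.

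Genes were then sorted by the tissue in which they were found. At least 1 CPM in all 3 libraries was reached by 39518 genes in shoot, 38456 in root and 30169 in both. At the other end, 21572 genes (21.3%) had 0 counts in all 6 libraries, of which 8420 had counts in some other library of the series. A gene was called found in one tissue where it reached at least 1 CPM in each library of that tissue and at most 0.1 CPM in the pooled counts of the other. By this rule 1445 genes were found only in shoot, 3.66% of those at 1 CPM or more there, and 2581 only in root, 6.71% of those at 1 CPM or more there. Of these, 442 and 1501 had 0 counts in all 3 libraries of the other tissue. A zero over the group allows 0.0197 CPM in roots and 0.0344 CPM in shoots (3 counts). In the shallowest library alone it allows 3.06 CPM in root and 2.18 CPM in shoot, so absence rests on the deep libraries. These limits are too low where both mates were counted.

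A larger part of the shoot-only than of the root-only genes lay at 10 CPM or more, and likewise at 100 CPM or more. The mean shoot level of the 1445 shoot-only genes had a median of 9.56 CPM, with 703 at 10 CPM or more and 111 at 100 CPM or more. The 2581 root-only genes had a median of 5.84 CPM in root, with 816 and 60. Shoot-only genes held 2.95% to 4.33% of counts in shoots, and root-only genes 5.2% to 6.42% in roots. Both sets had short spans: a median of 1.65 kb for shoot-only and 1.59 kb for root-only genes, against 2.2 kb and 2.18 kb for all genes at 1 CPM or more in that tissue.

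The 2 shoot-only genes with the highest level were BnaC03g05980D (C03, 2898021 to 2903502, minus strand) and BnaC08g44890D (C08, 37872506 to 37874127, plus strand). BnaC03g05980D lay at 698, 1540 and 1690 CPM in shoots and had 0, 6 and 2 counts in roots, a ratio of pooled levels of 23300 (95% counting interval 11800 to 54100). The mean levels were 1310 ± 537 CPM in shoot and 0.717 ± 1.15 CPM in root (SD, n = 3 each), and the fitted log2 fold change of 14.42 was 13.02 without root replicate 1 and 15.69 without root replicate 2. BnaC08g44890D lay at 222, 866 and 970 CPM in shoots and had 4, 10 and 0 counts in roots, a ratio of 6730 (4010 to 12300), and its log2 fold change of 12.77 was 11.91 without root replicate 1, 13.97 without root replicate 2 and 13.39 without shoot replicate 1. Again shoot replicate 1 was the lowest. Of the root-only genes, BnaCnng08320D (an unplaced C sequence, 7690698 to 7692565, plus strand) had the highest level, with 0, 0 and 2 counts in shoots and 1820, 1370 and 1540 CPM in roots, a ratio of root to shoot of 72400 (20000 to 597000). Its log2 fold change of -15.97 was -14.95 without shoot replicate 1 and -19.81 without shoot replicate 3, which held both shoot counts. BnaA03g30810D, described above, came next. These intervals cover counting error only, and are too narrow where both mates were counted.

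The same genes were then looked up in libraries that had no part in choosing them. Of the 1445 shoot-only genes, 1053 (72.9%) met the full rule again between control shoots and roots at 24 h, and of the 2581 root-only genes 1818 (70.4%) did. They made up 69.9% of the 1506 shoot-only and 63.8% of the 2850 root-only genes found at 24 h. The rule was looser for root there, as the control roots at 24 h are 2 libraries, of 45.8 and 60.3 M counts. At 7 d it asked for 1 CPM in 3 root libraries, the shallow replicate 3 among them. Between PA23-treated tissues at 7 d, 928 (64.2%) and 1768 (68.5%) met it. In all 3 other pairs of groups, 665 (46%) of the shoot-only and 1280 (49.6%) of the root-only genes did. Some were found in the other tissue there. In pooled counts, 1 CPM or more was reached by 17 shoot-only genes in PA23-treated roots at 24 h, 2 in PA23-treated roots at 7 d and 0 in control roots at 24 h. Of the root-only genes, 58 reached it in PA23-treated shoots at 24 h, 41 in control shoots at 24 h and 0 in PA23-treated shoots at 7 d.

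**Figure D3:**
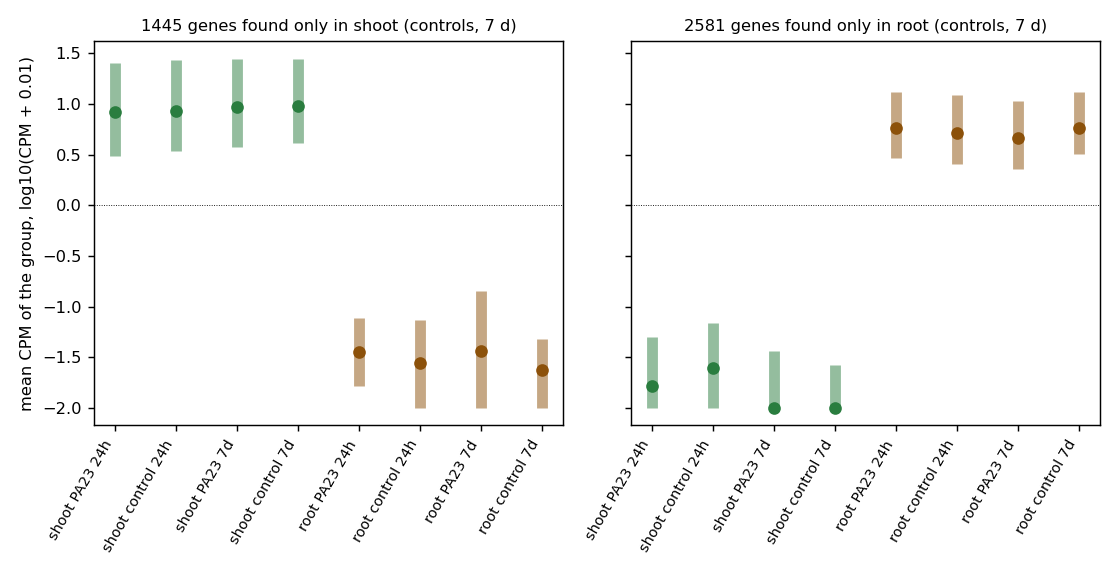
For the 1445 shoot-only (left) and 2581 root-only genes (right), dots show the median and bars the middle 50% of genes of their mean level in each of the 8 groups (log10 of CPM plus 0.01), with a dotted line at 1 CPM. The medians stayed on the side of the line on which the controls at 7 d placed them, at 8.34 to 9.56 CPM in shoots for the left panel and 4.58 to 5.84 CPM in roots for the right.

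One-tissue genes lay beside each other more often than genes at large. On chromosomes and their assigned unanchored sequences, 119 of 1276 shoot-only genes (9.33%) had a next neighbour that was shoot-only too, while 2.85% of all genes had such a neighbour. For root-only genes the figures were 306 of 2284 (13.4%) and 5.06%. No spans of consecutive genes in the table overlap, but adjacent copies of one gene can share reads, and the sources used here do not say how such reads were assigned.

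The A and C subgenomes took similar parts in the tissue difference. Of 32237 tested A genes, 23.9% were higher in shoot and 30.9% higher in root, and of 35552 tested C genes 23.9% and 29.4%, against 23.9% and 30.1% over all tested genes. The median log2 difference was -0.11 for A and -0.07 for C genes. Of the shoot-only genes 729 lay on A and 706 on C, and of the root-only genes 1258 and 1315. On A lay 50.8% of the shoot-only genes of A and C, against 48.3% of all those at 1 CPM or more in shoot. For root the shares were 48.9% and 48.6%. Among the 100 top genes, 55 lay on A and 45 on C in shoot, and 56 and 43 in root. Both lists thus held more A than C genes, while more C than A genes were tested. Reads shared by an A and a C copy may have been split between them, so levels of single copies are less certain than these totals.

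Counts too were split alike where unanchored sequences were included. A genes took 49.21%, 49.49% and 49.55% of the counts on A and C genes in shoots, against 49.17%, 49.62% and 49.35% in roots, a difference of 0.035 percentage points (exact permutation p = 0.9, two-sided). The tissues overlapped. The plan for this test named placed genes, which are those on anchored chromosomes. On these alone the shares were 49.8%, 49.7% and 49.76% in shoots, against 50.16%, 50.61% and 50.25% in roots. That is a difference of -0.587 points with no overlap (exact permutation p = 0.1, the smallest possible). The sign of this small difference thus depends on whether unanchored sequences are counted. Per kb of gene span, with unanchored sequences counted, A genes took 49.85% ± 0.245 in shoots and 49.31% ± 0.271 in roots (SD, n = 3 each). That difference of 0.536 points went the other way, with overlap (exact permutation p = 0.2, two-sided).

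Single chromosomes differed more than the subgenomes did. Of the 19 chromosomes, 6 took a higher share of counts in every shoot than in any root and 8 a higher share in every root, with 5 overlapping (exact permutation p = 0.1 each for the 14, adjusted p = 0.138 over 22 sequences). C04 took 6.63%, 7.79% and 7.63% of counts in shoots, against 4.85%, 4.93% and 4.92% in roots, the widest gap. A04 took 3.84%, 4.59% and 4.59% in shoots, against 3.13%, 3.15% and 3.2% in roots. A09 took 7.22%, 7.29% and 7.25% in shoots, against 5.97%, 5.89% and 5.84% in roots. In the other direction, A03 took 5.43% ± 0.202 in shoots and 6.25% ± 0.0819 in roots, and A02 took 3.19% ± 0.0915 in shoots and 3.83% ± 0.0353 in roots (SD, n = 3 each).

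Abundant genes weighed on these shares. Of the 100 top shoot genes, 14 lay on A09, 8 on C03, 7 on C04 and 5 each on A03, A04, A05, A07, A08, C05 and C09. Of the 100 top root genes, 8 lay on A09, 3 on C03, 6 on C04 and 4 on A04. For scale, A09, C03, C04 and A04 hold 5157, 7113, 5171 and 2721 of the 101040 IDs, so 8 on C03 is near its share of IDs. Without the 199 genes that were among the top 100 of either tissue, C04 took 5.21% ± 0.0383 of the rest in shoots and 4.82% ± 0.026 in roots, A04 took 2.97% ± 0.109 and 3.03% ± 0.0186, and A09 took 6.08% ± 0.134 and 5.87% ± 0.0688 (SD, n = 3 each, shoots before roots). The direction turned without these genes for A01 (4.04% ± 0.166 in shoots, 3.78% ± 0.0195 in roots), C01 (4.13% ± 0.072 in shoots, 3.96% ± 0.0643 in roots) and C03 (7.27% ± 0.127 in shoots, 7.64% ± 0.0884 in roots). The means also changed order for A04, C05 and C06, with overlapping libraries. They did so too for A06 (4.34% ± 0.00584 in shoots, 4.19% ± 0.069 in roots), where the libraries overlapped only with these genes included. Without the 199 genes the widest gap was that of C08 (5.13% ± 0.326 in shoots, 4.39% ± 0.0454 in roots). Counted by genes, A04 even held the lowest share of calls towards shoot among the 19 chromosomes, 22.4% of its tested genes, and the highest towards root, 33.5%. Over all chromosomes the shares ranged from 22.4% to 25.3% towards shoot and from 28% to 33.5% towards root.

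**Figure D4:**
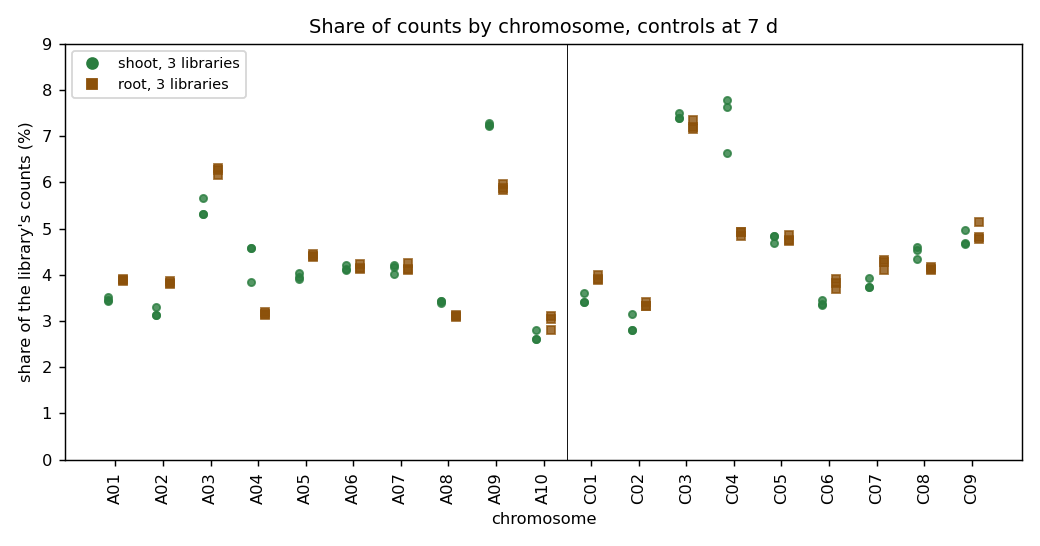
Share of a library's counts (y axis, %) on each of the 10 A and 9 C chromosomes, with shoot libraries as circles left of root libraries as squares, 3 per tissue. C04, A09 and A04 stand out with higher shares in shoots, while A02 and A03 are among those with higher shares in roots.

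Of 213 tested genes not assigned to either subgenome, 58 (27.2%) were higher in shoot and 64 (30%) higher in root, against 23.9% and 30.1% over all tested genes. All such genes took 0.102%, 0.0825% and 0.0849% of counts in shoots, against 0.273%, 0.317% and 0.361% in roots. A large part of this was BnaUnng00730D (897391 to 898950 of the unassigned sequence, plus strand), singled out after its values were seen, which lay at 62.6, 24.7 and 27.9 CPM in shoots, against 1080, 1410 and 1350 CPM in roots (log2 fold change -5.01, SE 0.41, edgeR adjusted p = 1.09e-10).

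The tissue difference was largely the same at the other harvest. Of the 36722 genes called at 7 d, 35272 (96.1%) had the same direction in the controls at 24 h, which share no library with the 7 d controls, against 82.2% of all tested genes. Tested against each other, the differences at 7 d and at 24 h were unlike in 522 of 68002 genes (0.768%) (edgeR adjusted p under 0.05; 6879 had an unadjusted p under 0.05). In 79 (0.116%) the shoot-over-root difference was higher at 7 d and in 443 (0.651%) lower, that is, further towards root. On the scale of mean log2(CPM + 0.5), the median tissue difference of the 443 genes was -1.78 at 7 d and 0.24 at 24 h, and that of the 79 genes was 1.07 at 7 d and -1.11 at 24 h. Of the 443 genes, 86 (19.4%) were called higher in shoot at 7 d and 303 (68.4%) higher in root, and of the 79 genes 45 (57%) and 16 (20.3%), against 23.9% and 30.1% of all tested genes. Both sets were chosen by a value that holds the 7 d difference, so these shares are a description.

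**Figure D5:**
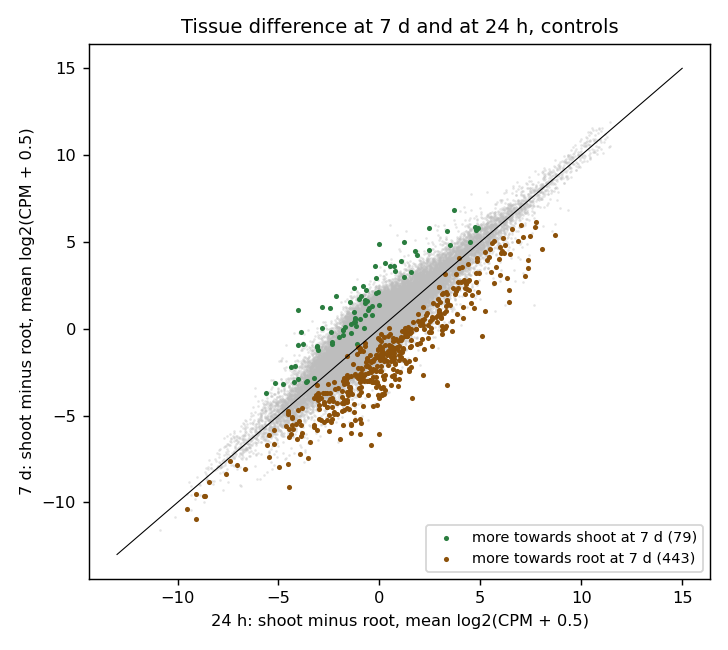
Each point is a tested gene, with the shoot minus root difference of mean log2(CPM + 0.5) in controls at 7 d on the y axis and at 24 h on the x axis, and a diagonal line of equal differences. Green points are the 79 genes with a shoot-over-root difference that was higher at 7 d, and brown points, below the diagonal, the 443 with a lower one.

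The number rests on single libraries more than the main comparison does. It was 198 and 196 without root control replicate 2 or 3 at 24 h, where a single root library is then assumed to vary like the other groups, 215 without shoot control replicate 2 at 24 h, and 305 without root control replicate 2 at 7 d. In shoot control replicate 2 at 24 h, the 1832 genes found only in root under PA23 made up 91.7 counts per M, against 25.3, 26 and 30.1 in the control shoots at 7 d and 33.3 and 34 in the other control shoots at 24 h. Of the 443 genes 20 (4.51%) belonged to those 1832, which are 2.69% of all tested genes. The part of these traces in the count was not tested.

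The 2 strongest shifts towards root belonged to genes with no counts in shoots at 7 d. BnaA10g28190D (an unanchored sequence of A10, 428984 to 437090, minus strand) had 0 counts in shoots and 21.9, 29.7 and 8.17 CPM in roots at 7 d, at least 716-fold higher in root. At 24 h it had 0, 1.71 and 0.723 CPM in shoots and 1.08 and 2.51 CPM in roots, a ratio of root to shoot of 1.59 (95% counting interval 1.26 to 2.01), and the shift passed the threshold (edgeR adjusted p = 0.00171). BnaC02g21070D (C02, 17727064 to 17729357, plus strand) had 0 counts in shoots and 11.7, 18.7 and 16.3 CPM in roots at 7 d, at least 414-fold higher in root. At 24 h it had 0, 0.908 and 0.372 CPM in shoots and 4.6 and 3.99 CPM in roots, a ratio of 6.84 (5.22 to 9.11; edgeR adjusted p = 8.7e-05 for the shift). Roots were higher at 7 d than at 24 h in both genes without overlap.

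The 2 strongest shifts towards shoot were of genes that stayed higher in root. BnaCnng28900D (an unplaced C sequence, 27351259 to 27354173, minus strand) lay at 0.0977, 1.45 and 0.936 CPM in shoots and 4.92, 4.33 and 0 CPM in roots at 7 d, a ratio of root to shoot of 8.49 (95% counting interval 6.34 to 11.6). At 24 h it had 0 counts in shoots and 3.41 and 4.19 CPM in roots, at least 122-fold higher in root (edgeR adjusted p = 0.0395 for the shift). BnaA10g11060D (A10, 9334208 to 9339460, plus strand) lay at 0.122, 0 and 0.468 CPM in shoots and 2.93, 4.4 and 6.13 CPM in roots at 7 d, a ratio of 11.7 (7.88 to 18), and at 24 h had 0 counts in shoots and 4.38 and 4.19 CPM in roots, at least 135-fold higher in root (edgeR adjusted p = 0.0253 for the shift). Both rest on traces in shoot, and both calls were lost without any one of several libraries, shoot control replicate 3 at 7 d and both 24 h root controls among them. They were also lost with DESeq2 (adjusted p = 0.0546 for BnaCnng28900D and 0.177 for BnaA10g11060D) and with limma-voom (adjusted p = 0.443 and 0.272).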

How the data were processed

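Total RNA of 23 Brassica napus libraries was sequenced. The authors deposited unscaled whole-number counts, with a row per gene and a column per library. Per the submitters' processing notes, HISAT2 and DESeq2 were used. The sources used here name no version, counting tool, genome build, annotation or strand setting. The table's gene length is that of the whole span from start to end, for all 101040 IDs.

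From these counts, edgeR 4.0.16 in R 4.3.3 fitted all 8 groups together (filterByExpr, TMM, robust quasi-likelihood test, Benjamini-Hochberg adjustment over all genes tested); the standard error is the log2 fold change divided by the square root of F. The procedure was also run on simulated independent counts, in which few genes differed between groups and mates were not counted apart. No result given here rests on that simulation. Alternatives used DESeq2 1.42.0, limma 3.58.1 (voom), other scalings, filters, sample sets, a replicate block and the sequencing run as a covariate. The run was taken from a code that opens each sample description. By that code, only root replicate 2 in this comparison came from another run. Single values were tested by exact permutation over libraries. Intervals are 95% exact counting intervals and cover counting error only. Same-numbered shoot and root libraries did not deviate together (correlations of 0.0589, 0.0542 and 0.00878 over 24681 genes), so numbers were not taken as pairs. Genes were named by rule: the 2 largest changes each way, the 2 most abundant per tissue, the 2 most abundant found in one tissue, and the 2 largest differences between harvests each way. The lists by gene description could not be filled because the IDs carry no descriptions. The comparison and lists were chosen with earlier results of these data known.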

Additional observations from a re-analysis of the deposited data

Results flagged for a closer look

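Whether the tissue difference was of another size at 7 d than at 24 h was tested for every gene in controls, and 522 genes differed by that test (edgeR adjusted p under 0.05). The shift of the shoot-over-root log2 difference, 7 d minus 24 h, was 8.24 for BnaCnng28900D (SE 1.96) and 7.5 for BnaA10g11060D (SE 1.68), and -12.98 for BnaA10g28190D (SE 1.87) and -10.31 for BnaC02g21070D (SE 1.34). In each of the 4 genes a shoot group had 0 counts in all its libraries, so the fitted shift depends on the constant added to zeros and is no bound. Without single libraries, BnaCnng28900D gave 9.32 (shoot replicate 1 at 7 d) and 6.46 (shoot replicate 3 at 7 d), and BnaA10g11060D 8.37 and 6.23 without the same libraries. BnaA10g28190D gave -13.71 without root replicate 3 at 24 h and -12.23 without shoot replicate 2 at 24 h, and BnaC02g21070D gave -9.54 without the last of these. Over the alternatives run, the shift of BnaCnng28900D ranged from 3.68 to 9.32 and that of BnaA10g11060D from 3.73 to 8.37, while that of BnaA10g28190D ranged from -13.71 to -9.17 and that of BnaC02g21070D from -10.77 to -6.22. With DESeq2 and with limma-voom, BnaCnng28900D and BnaA10g11060D missed the threshold, while BnaA10g28190D and BnaC02g21070D passed it.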

How the results depend on the processing

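The number of genes called between shoot and root stayed within 1.5 times of 36722 in 17 of 19 alternatives, among them DESeq2 (31140), limma-voom (39981), no filter (37078), the run as a covariate (34624) and without the libraries under 2 M counts (41265). It was 15188 among abundant genes alone, where fewer genes were tested, and leaving out one library at a time gave 32024 to 36698. With a replicate block it was 34904, and 21182 with the block in a fit of the 6 libraries alone, against 24669 in that fit without it. Both fits of the 6 libraries alone tested 57549 genes. The count of tissue differences that changed between harvests was less stable: 829 with limma-voom, 1039 without the libraries under 2 M counts, 1041 with all counts halved, 362 with a replicate block, and 196 to 676 leaving out one library at a time. The difference in the top 100 genes' share kept its direction throughout (9.73 to 14.1 points leaving out one library), as did that in genes detected (-6648 to -2966). At 5 CPM in the higher tissue, 761 genes were shoot-only and 1032 root-only, and with 0 counts required in the lower tissue 442 and 1501; leaving out one library gave 1427 to 1711 and 2589 to 3406. The difference in the A share turned to -0.12 without the most abundant genes, -0.587 without unanchored sequences and -0.0997 with each detected gene counted once, and ranged from -0.069 to 0.153 leaving out one library. Per kb of gene span it was 0.536. KCP1 (BnaA02g32290D) turned to -0.17 with total counts. The cause of these changes was not tested. Genes below about 1 CPM have hardly any counts in the 2 shallow libraries.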
